A study of Homo sapiens with 6 samples.

Results

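SKOV-3 is an established human ovarian cancer cell line, and the question here was which transcripts set it apart from the ovarian cancer lines ES-2 and OVCAR-3. The SKOV-3 arrays were chosen by the cell line given in the labels and are 2 of the 6 arrays in all, the other 2 lines having 2 arrays each. In every line, 1 array came from cells given miR-blank, the control, and 1 from cells given miR-135a-3p, the product of the 3′ side of the miR-135a precursor. All 6 samples were therefore transfected cells, and no untreated culture was analysed here. Nothing in the labels says that the arrays of a line came from separate cultures, so the p-values measure the spread between the arrays of a line after a common transfection effect is removed. Each group is 1 cell line. A difference between SKOV-3 and the others is therefore a difference between these lines, not between kinds of ovarian cancer.

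Epithelial cells are held together by tight junctions, which seal the gap between neighbours, and by desmosomes, which couple the keratin filaments of adjacent cells. Cadherins carry such contacts, and the clustered protocadherins are a large group of cadherin relatives whose genes lie side by side and are each read from a promoter of their own. PAX8 is a paired-box transcription factor of the Mullerian duct lineage, widely used as a marker of ovarian epithelial tumours. SKOV-3 is known for extra copies of the ERBB2 region of chromosome 17.

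Values are log2 signals, so a difference of 1 is 2-fold. Where 2 values are given for a line, the miR-blank array comes first and the miR-135a-3p array follows. The medians of the 6 arrays lay between 4.16 and 4.23, and a signal near them could not be told from background, since the table held no detection calls. Signals correlated across probe sets at 0.979 between the SKOV-3 arrays, 0.987 within ES-2, 0.984 within OVCAR-3 and 0.942 to 0.953 between lines. All 6 columns differed from each other. The number of arrays limits the precision.

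The 3 marker genes named for SKOV-3 were all high in it. They were chosen with earlier results of these data known, so their signals describe SKOV-3 and are no independent check. PAX8 read 8.80 and 8.12 in SKOV-3, 4.17 and 4.80 in ES-2, and 4.33 and 4.12 in OVCAR-3. Both SKOV-3 arrays lay far above the other 4, which were near the array medians. The difference was 3.97 from ES-2 and 4.24 from OVCAR-3 (SE 0.31 for each, limma adjusted p 0.000636 and 0.000401). MARVELD2, which encodes the tight junction protein tricellulin, read 7.09 and 7.09 in SKOV-3, 3.78 and 3.78 in ES-2, and 5.14 and 4.27 in OVCAR-3. The arrays did not overlap, and the differences were 3.31 and 2.38 (SE 0.26, adjusted p 0.000616 and 0.00155). PCDHB5, a gene of the protocadherin beta cluster, read 9.71 and 10.13 in SKOV-3, 6.24 and 7.04 in ES-2, and 3.57 and 3.33 in OVCAR-3. It stood in 3 steps, with ES-2 between the other lines, and the differences were 3.28 and 6.47 (SE 0.26, adjusted p 0.000722 and 7.41e-05).

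Not every epithelial marker was high. The epithelial adhesion protein gene EPCAM read 4.11 and 3.78 in SKOV-3, at the level of the array medians, and between 3.93 and 4.32 on the other arrays. The simple epithelial keratin KRT18 read 9.36 and 9.95 in SKOV-3, and its differences of −0.76 and −0.54 did not pass the test (adjusted p 0.0571 and 0.13). KRT8, its usual partner, read 5.45 and 6.07. ERBB2 and CDH1 were not analysed here. Most markers of other cell types were low: 2 of 7 leukocyte, 3 of 8 endothelial and 1 of 5 fibroblast markers reached a signal of 5 on each SKOV-3 array. Their mean signals on the SKOV-3 arrays were 4.54 and 4.84, 4.55 and 4.41, and 4.0 and 3.57, against 4.45 to 4.96, 4.56 to 5.02 and 3.64 to 3.84 on the arrays of the other lines. No fibroblast marker reached 5 on both SKOV-3 arrays. The one that did so was LUM on the miR-blank array (6.05 and 2.84) and THY1 on the miR-135a-3p array (4.86 and 5.01). LUM read 2.79 to 3.96 in the other lines. Of 11 mesothelial markers, 5 and 4 reached a signal of 5 on the SKOV-3 arrays, with mean signals of 4.59 and 4.77 against 4.03 to 4.68 on the others. BNC1 among them read 6.37 and 7.29 in SKOV-3 and 8.50 and 8.95 in ES-2. An exception among the leukocyte markers was CD68, a lysosomal protein abundant in macrophages, which read 7.96 and 10.20 in SKOV-3 and 10.40 and 10.15 in ES-2. None of the 7 tested leukocyte, endothelial and fibroblast genes was apart from both lines. The 7 tested proteins that every cell makes, among them GAPDH and PGK1, held none either. Within this list GAPDH read 6.24 and 6.65 in SKOV-3, and HPRT1 read 9.26 and 9.08. Levels were read from the highest-mean probe set of each gene. How far a low level, such as that of EPCAM or KRT8, depends on the probe set was not tested.

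A gene was called apart when it differed from ES-2 and from OVCAR-3 in the same direction, by at least 2-fold and with an adjusted p under 0.05 in each comparison. Of 8951 genes tested, 361 were higher in SKOV-3 than in both other lines (4.03%) and 98 were lower than in both (1.09%). The counts given below for lists and groups are to be set against these shares. Higher genes made up 78.6% of these calls. In all genes so called the SKOV-3 arrays lay outside the range of the other 4, which the 2-fold rule and the adjusted p cut together nearly require. The smaller of the 2 differences had a median of 1.51 among the higher genes and −1.45 among the lower ones, and 51 higher and 8 lower genes were at least 8-fold from both lines. The median over all tested genes was 0.06 against ES-2 and 0.02 against OVCAR-3. Of the higher genes, 163 read below 5 in both other lines, so their difference was measured from a signal near background. A filter on low signals that lets in genes through SKOV-3 alone added 107 of the 361 and none of the 98. It let in 331 genes this way, which had to read higher in SKOV-3 than the mean of the other lines, by no set amount. Among the called ones, the text names DSC3, PKP2, HOOK1, S100A4, PCDHB4, PCDHB6, PCDHB8, PCDHB17P, PCDHB18P, PCDH9, LRRN4, RET and ROR1. It also names IL18, IL32, IFIT3, TSPAN1, MEIOB, SYCP2, HORMAD1 and ZNF257. Without limma's sharing of variance between genes, which leaves 2 residual degrees of freedom, no gene was called in either direction, although 267 higher and 72 lower genes passed at an unadjusted p under 0.05.

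Against each line separately the calls were more numerous. Against ES-2, 759 genes were higher (8.48%) and 420 lower (4.69%). Against OVCAR-3, 914 were higher (10.2%) and 482 lower (5.38%). A further 95 genes placed SKOV-3 between the other lines, 35 of them higher than ES-2 and lower than OVCAR-3 and 60 the reverse. Within each transfection taken alone, 267 of the 361 higher and 68 of the 98 lower genes were at least 2-fold from both other lines.

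**Figure D1:**
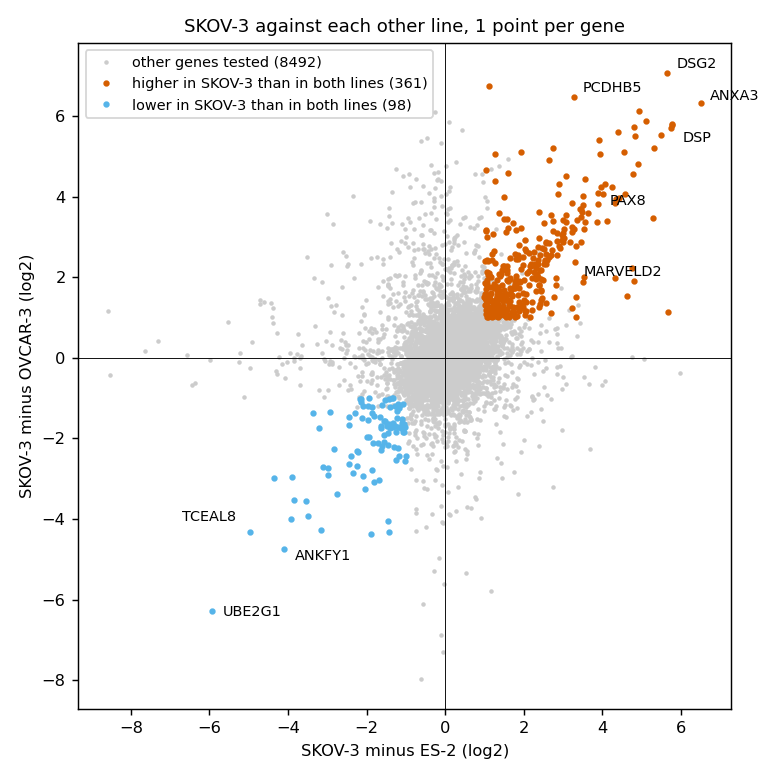
Difference of SKOV-3 from ES-2 (x axis, log2) and from OVCAR-3 (y axis, log2), 1 point per gene, with the 361 higher and 98 lower genes in colour. The higher genes outnumber the lower ones, ANXA3, DSG2 and DSP lie far out in the upper right, and UBE2G1 lies alone at −5.94 and −6.28.

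The genes highest above both lines were led by ANXA3, an annexin that binds membrane phospholipids in the presence of calcium. ANXA3 read 9.28 and 9.33 in SKOV-3, 2.66 and 2.90 in ES-2, and 2.87 and 3.10 in OVCAR-3. The differences were 6.53 and 6.32 (SE 0.16, adjusted p 2.59e-05 and 3.14e-05), and the other lines lay well below the array medians. BMP5, a secreted ligand of the TGF-beta family, read 9.36 and 7.78 in SKOV-3 and between 3.16 and 3.49 elsewhere. EDIL3, a matrix protein that binds integrins, read 9.45 and 8.24 in SKOV-3, 4.41 and 4.47 in ES-2, and 3.19 and 3.27 in OVCAR-3. For BMP5 and EDIL3 the SKOV-3 arrays were the highest of the 6, and the miR-blank array was the higher of the pair. CD70, the ligand of the lymphocyte receptor CD27, read 10.80 and 10.02 in SKOV-3 against 6.81 and 4.91 in ES-2 and 5.36 and 5.26 in OVCAR-3. PLEK2, a pleckstrin relative tied to the actin skeleton, read 9.07 and 10.50 against 3.41 to 5.18. HOOK1, an adaptor that links cargo to microtubules, read 6.74 and 6.21 against 2.20 to 2.27. All 6 genes had adjusted p values of at most 0.00159 in both comparisons. The long non-coding RNA UCA1, picked after its values were seen, read 9.18 and 9.53 in SKOV-3 against 3.39 to 3.86, a difference of 5.74 and 5.71.

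**Figure D2:**
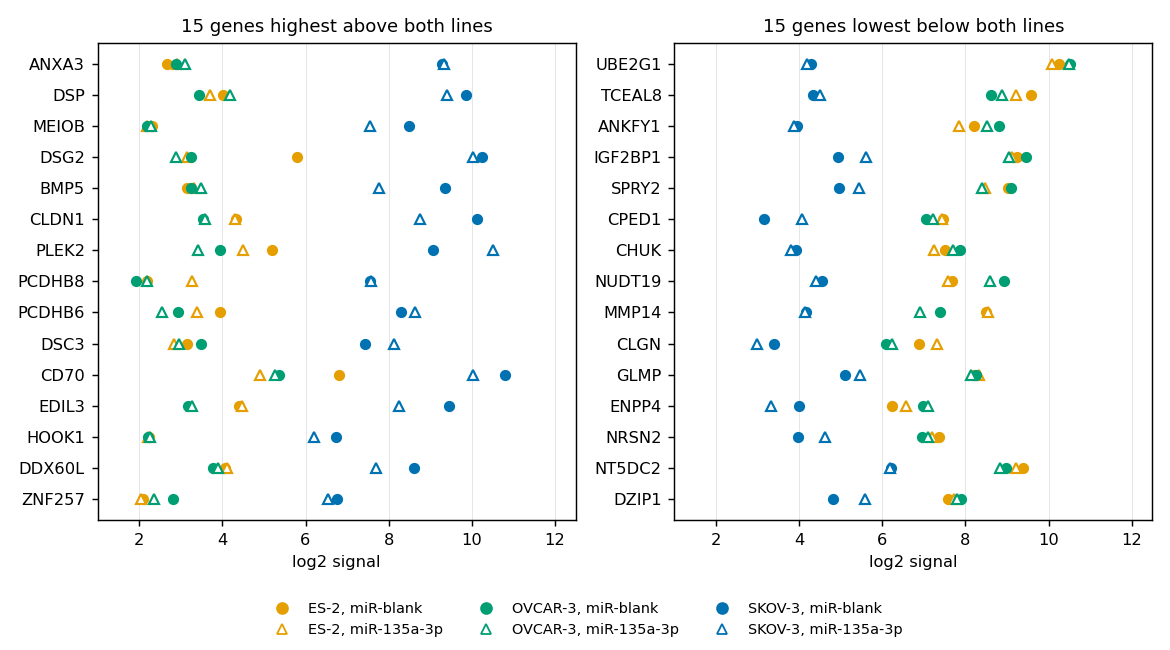
Log2 signal on each of the 6 arrays for the 15 protein-coding genes highest above both lines (left) and the 15 lowest below both (right), circles for miR-blank and triangles for miR-135a-3p. In every gene the blue SKOV-3 symbols stand apart from the others, as the choice of the genes requires, and the ES-2 and OVCAR-3 symbols mostly lie close together.

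Desmosome genes stood high in SKOV-3. Of 10 tested genes of the epithelial adhesion list, 4 were higher than in both lines and 0 lower, and all 4 encode desmosome proteins. The list medians were 0.74 against ES-2 and 0.56 against OVCAR-3. DSP, the desmoplakin that ties the plaque to keratin filaments, read 9.87 and 9.40 in SKOV-3, 4.01 and 3.69 in ES-2, and 3.45 and 4.19 in OVCAR-3. Its differences were 5.78 and 5.82 (SE 0.31, adjusted p 0.000183 and 0.000144). The desmosomal cadherin DSG2 read 10.25 and 10.02 in SKOV-3, 5.79 and 3.16 in ES-2, and 3.24 and 2.89 in OVCAR-3. The ES-2 arrays of DSG2 were 2.63 apart, and SKOV-3 lay above the higher of them. DSC2, the partner cadherin of DSG2, read 8.43 and 8.78 in SKOV-3, 5.30 and 5.74 in ES-2, and 3.98 and 4.17 in OVCAR-3. DSC3, which is no member of the list but among the 15 highest genes, read 7.43 and 8.14 against 2.83 to 3.49. The plaque protein PKP2 was close above the filter, at 5.36 and 5.18 against 3.92 to 4.09, and its differences were 1.29 and 1.24. DSC3, DSC2 and DSG2 are neighbours on chromosome 18, and DSP and PKP2 lie on chromosomes 6 and 12. Over the desmosome genes as a group, put together after the values were seen, 5 of 8 tested were higher than in both lines, against 4.03% of all tested genes. DSC3 and PKP2 were tested only because SKOV-3 itself reached a mean of 5. The count thus includes genes that had to read above the mean of the other lines. In the epithelial adhesion list, 3 of 7 were higher with a filter on the mean of all 6 arrays, chosen after the data were seen. The exceptions were the plaque genes PKP3 (differences 0.56 and 0.85), PKP4 (0.10 and 0.31) and JUP. JUP, or plakoglobin, read 6.47 and 6.07 in SKOV-3, 5.48 and 5.60 in ES-2, and 8.21 and 8.08 in OVCAR-3, so it was lower than in OVCAR-3 by the test (−1.88, adjusted p 0.00127).

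Tight junction genes were divided. Of 13 tested, CLDN1 and MARVELD2 were higher than in both lines and 0 were lower, and the list medians were 0.27 and −0.42. CLDN1, a claudin that forms the sealing strands, read 10.13 and 8.74 in SKOV-3, 4.33 and 4.32 in ES-2, and 3.53 and 3.59 in OVCAR-3. Its differences were 5.11 and 5.87 (SE 0.36, adjusted p 0.000468 and 0.000221). The other 2 claudins of the list that were tested, CLDN7 and CLDN3, were not higher than in both lines. CLDN7 read 4.94 and 5.09 in SKOV-3, near its level of 4.87 and 5.26 in ES-2 and below the 9.24 and 8.97 of OVCAR-3 (−4.10, adjusted p 0.000123). CLDN3 differed by −0.21 and −0.26 and did not pass the test against either line. OCLN, or occludin, read 8.63 and 8.30 in SKOV-3, which was 3.0 above ES-2 and, at −0.48, not apart from OVCAR-3 (adjusted p 0.14). LSR, which recruits tricellulin to the corners where cells meet, took the middle place, 2.08 above ES-2 and 1.46 below OVCAR-3 on the log2 scale. TJP1, the scaffold protein ZO-1, read 9.39 and 8.87 in SKOV-3, and was −2.07 from OVCAR-3 (adjusted p 0.00195).

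The mesenchymal genes did not move in 1 direction. Of 16 tested, 2 were higher than in both and 0 lower, while 9 were higher than in OVCAR-3 and 4 were lower than in ES-2. The list medians were −0.61 against ES-2 and 1.42 against OVCAR-3. The intermediate filament gene VIM read 9.60 and 10.13 in SKOV-3, 10.73 and 10.85 in ES-2, and 5.08 and 5.54 in OVCAR-3. The receptor kinase AXL and the matrix cross-linking enzyme gene LOX were the genes that passed both tests with SKOV-3 between the lines. AXL read 9.44 and 9.59 against 11.01 and 10.86 in ES-2 and 5.84 and 5.75 in OVCAR-3, with differences of −1.42 and 3.72. FN1, the matrix protein fibronectin, read 5.04 and 4.75 in SKOV-3 against 11.20 and 11.34 in ES-2 and 4.41 and 6.63 in OVCAR-3. Without the OVCAR-3 miR-blank array FN1 was called lower than both lines (smaller difference −1.77, adjusted p 0.0221). The 2 genes higher than both were S100A4, a calcium-binding protein, and TAGLN, an actin-binding protein of smooth muscle. S100A4 read 6.13 and 7.39 against 3.86 to 4.04 elsewhere, and was tested only through its SKOV-3 signal. TAGLN read 5.78 and 7.06 against 3.85 to 5.0, and its call was lost without either OVCAR-3 array (adjusted p 0.156 and 0.145).

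**Figure D3:**
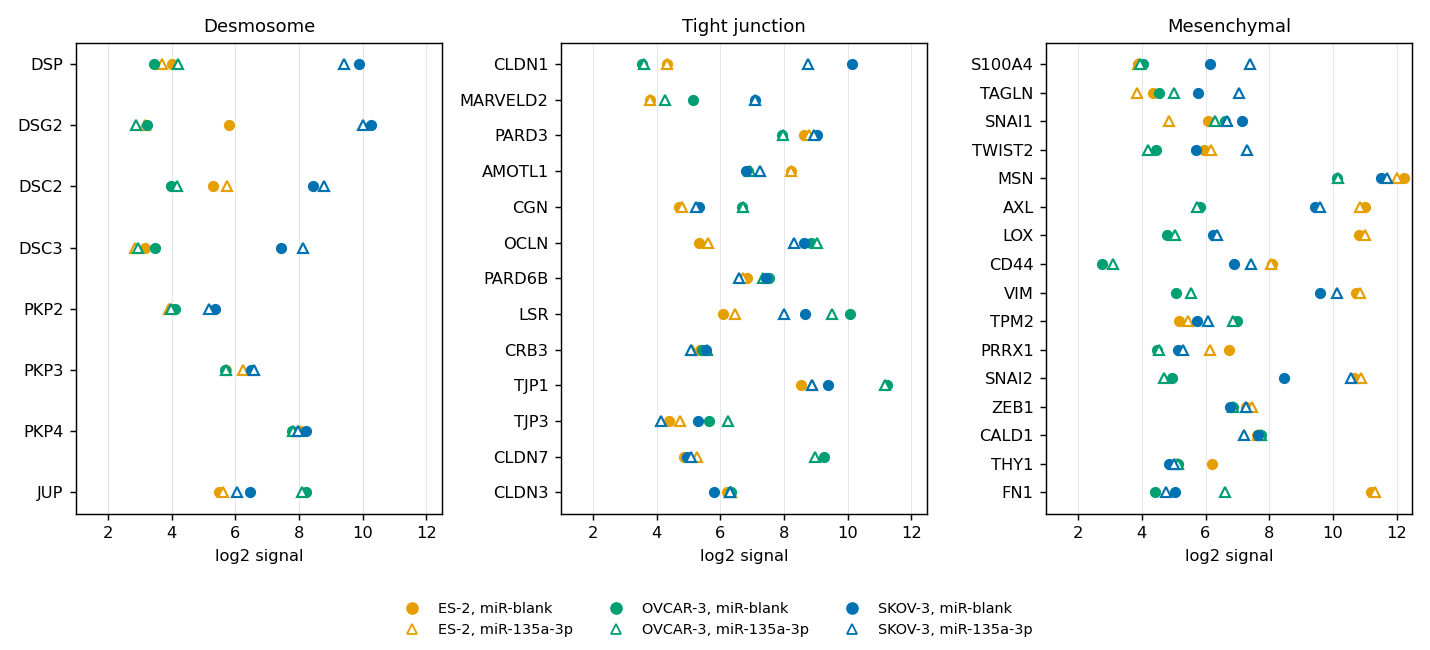
Log2 signal on each array for the tested genes of the desmosome (left), tight junction (middle) and mesenchymal (right) groups, ordered within the last 2 by the smaller difference of SKOV-3 from the other lines. The SKOV-3 symbols are clear of the rest for DSP, DSG2, DSC2, DSC3, CLDN1 and MARVELD2, lie with OVCAR-3 for OCLN, with ES-2 for CLDN7, and between the lines for VIM and AXL.

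Nearly all tested protocadherin beta genes were high in SKOV-3. All 16 listed genes were on the array and 13 were tested. Of the 13, 12 were higher in SKOV-3 than in both lines and 0 lower, against 4.03% of all tested genes that were higher. The medians were 2.92 and 3.20. The list holds the marker PCDHB5 and was chosen with earlier results of these data known, so the count is a description and no test. PCDHB4, PCDHB6 and PCDHB8 were tested only because SKOV-3 itself reached a mean of 5. The count thus includes genes that had to read above the mean of the other lines. With a filter on the mean of all 6 arrays, chosen after the data were seen, 9 of 10 were higher, and with no filter 13 of 16. These genes are close relatives in sequence, and signal shared between them could not be told apart, since probe sequences were not used here.

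PCDHB8 read 7.54 and 7.57 in SKOV-3, 2.18 and 3.27 in ES-2, and 1.92 and 2.20 in OVCAR-3. PCDHB6 read 8.31 and 8.64, against 3.95 and 3.38 in ES-2 and 2.93 and 2.56 in OVCAR-3. Both genes were near background outside SKOV-3, with differences of 4.83 and 5.50 for PCDHB8 and 4.81 and 5.73 for PCDHB6. PCDHB10 read 6.99 and 7.71, against 3.75 and 4.25 in ES-2 and 3.86 and 4.02 in OVCAR-3. PCDHB13 read 7.61 and 7.66, against 4.05 and 5.90 in ES-2 and 2.50 and 2.96 in OVCAR-3. Over the 12 genes the SKOV-3 arrays spanned 4.89 to 10.13 and the other arrays 1.92 to 7.04, and within each gene the groups did not overlap. PCDHB3 was the exception. It read 5.76 and 7.43 in SKOV-3 and 6.72 and 6.91 in OVCAR-3, so these arrays overlapped (−0.21, adjusted p 0.803), while ES-2 was lower at 4.13 and 3.21. PCDHB4 was the least stable member, with 4.89 and 7.05 in SKOV-3, and its call was lost without either OVCAR-3 array (adjusted p 0.058 and 0.0905). PCDHB1, PCDHB9 and PCDHB11 stayed below the filter.

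The PCDHB genes lie side by side on chromosome 5. In the order of the tested genes, a run of 13 neighbours from PCDHB4 to PCDHB15 was higher than in both lines, and it takes in the transcribed pseudogenes PCDHB17P and PCDHB18P. PCDHB17P read 3.84 and 6.50 in SKOV-3 and 2.10 to 2.83 elsewhere, and its call was lost without the ES-2 miR-135a-3p array or either OVCAR-3 array. All 13 tested PCDHB genes read higher after miR-135a-3p than after miR-blank in SKOV-3, by 0.03 to 2.16, and 10 of 13 did so in ES-2 and in OVCAR-3. These are differences between single arrays and were not tested. The share of all tested genes that read higher after miR-135a-3p was not counted, so these counts have nothing to be set against. Signal shared between the PCDHB genes could not be told apart, so they are not separate observations. The SKOV-3 miR-blank arrays of the 12 genes nonetheless lay above both arrays of the other lines.

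**Figure D4:**
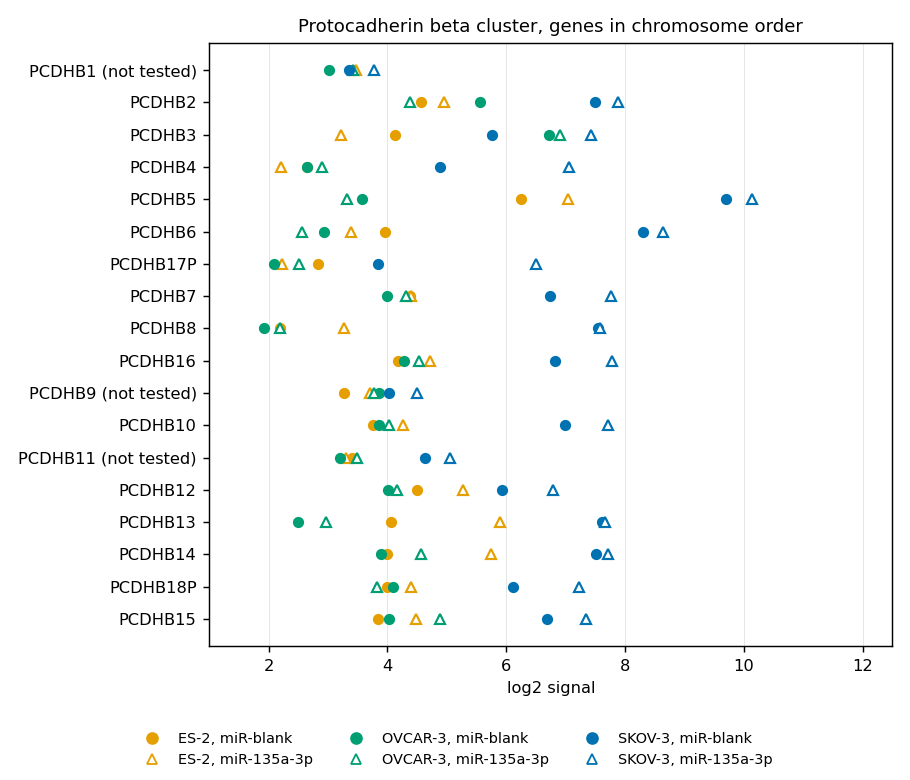
Log2 signal on each array for the protocadherin beta genes and 2 transcribed pseudogenes, in their order along the chromosome, with the genes below the filter marked as not tested. SKOV-3 lies to the right of both lines from PCDHB4 to PCDHB15 and at PCDHB2, by less at the untested PCDHB9 and PCDHB11, and at PCDHB3 it overlaps OVCAR-3.

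Clustered protocadherin promoters share a conserved sequence element bound by the insulator protein CTCF, and the promoters are shown because these genes moved as a block. In RefSeq promoter windows of GRCh38.p14, from 250 bases before to 50 after the start site, the letters GGTGGCGCT were found on the gene's own strand in 13 of the 14 PCDHB promoters in the table (92.9%), in all but that of PCDHB1. On either strand they occurred in 0.501% of 35116 promoters, in 2 of 381 promoters of other genes higher than both lines (0.525%) and in 0 of 38 promoters of the PCDHA and PCDHG clusters. The letters were searched with the clustered protocadherin element in mind, and a match describes the sequence only. They are a short string and not the whole element. Their absence from the PCDHA and PCDHG promoters therefore does not show that the element is missing there. All windows below are on the plus strand, 5′ to 3′, with the shared letters in capitals. The first 4 belong to genes higher than both lines, PCDHB3 is the gene that overlapped OVCAR-3, and PCDHB9 is a gene below the filter. They lie at chr5:141135172-141135205, chr5:141192292-141192336, chr5:141172559-141172603, chr5:141182303-141182347, chr5:141100386-141100430 and chr5:141187067-141187111, in the order printed.
PCDHB5: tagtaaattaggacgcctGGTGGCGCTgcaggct
PCDHB10: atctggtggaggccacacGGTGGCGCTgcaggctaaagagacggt
PCDHB7: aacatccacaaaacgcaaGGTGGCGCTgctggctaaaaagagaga
PCDHB16: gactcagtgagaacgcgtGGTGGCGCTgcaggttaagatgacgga
PCDHB3: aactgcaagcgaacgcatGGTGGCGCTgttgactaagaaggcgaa
PCDHB9: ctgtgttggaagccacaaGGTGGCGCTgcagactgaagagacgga
The capitals begin 16 to 76 bases before the start site in these 6 genes. The same letters were present in PCDHB5 and PCDHB9, whose SKOV-3 signals were 9.71 and 10.13 for PCDHB5 and 4.03 and 4.49 for PCDHB9. Any relation of the letters to signal was not tested.

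Outside the cluster, 2 of 8 tested cadherin relatives were higher than in both lines and 0 lower, against 4.03% of all tested genes that were higher. PCDH10, an unclustered protocadherin, read 8.18 and 8.49 in SKOV-3, 5.20 and 5.33 in ES-2, and 4.45 and 5.15 in OVCAR-3 (3.07 and 3.54, adjusted p 0.000335 and 0.000159). PCDH9 read 8.0 and 6.12 against 2.82 to 4.27, and was tested only through its SKOV-3 signal. In contrast, PCDH18 read 5.17 and 6.70 in SKOV-3 and 9.62 and 9.85 in OVCAR-3.

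The lower genes were fewer, and several were nearly silent in SKOV-3. UBE2G1, a ubiquitin-conjugating enzyme, read 4.28 and 4.18 in SKOV-3, 10.26 and 10.08 in ES-2, and 10.52 and 10.50 in OVCAR-3. Its differences were −5.94 and −6.28 (SE 0.16, adjusted p 3.19e-05 and 3.14e-05), and SKOV-3 lay at the array median. ANKFY1, an endosomal protein encoded next to UBE2G1 on chromosome 17, read 3.95 and 3.89 in SKOV-3 against 7.85 to 8.81. CHUK, the kinase IKK-alpha of the NF-kB pathway, read 3.93 and 3.82 in SKOV-3, 7.50 and 7.24 in ES-2, and 7.88 and 7.71 in OVCAR-3. All 3 genes were thus at background level in SKOV-3 and well expressed in the other lines. TCEAL8 read 4.34 and 4.51 against 8.61 to 9.57, and NUDT19, a nudix hydrolase, read 4.56 and 4.42 against 7.59 to 8.93. IGF2BP1, an oncofetal RNA-binding protein, read 4.93 and 5.60 against 9.05 to 9.46 (−3.92 and −3.99, adjusted p 0.000447 and 0.000317). MMP14, a membrane-bound metalloproteinase, read 4.17 and 4.15 in SKOV-3, 8.49 and 8.55 in ES-2, and 7.40 and 6.90 in OVCAR-3. It was the 1 of 13 tested protease genes that was lower than in both lines. In 30 of the 98 lower genes the SKOV-3 mean was below 5.

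Other genes near UBE2G1 were also examined. CYB5D2, on the other side of ANKFY1, differed by −2.18 from ES-2 and by −1.0 from OVCAR-3 and was just short of 2-fold in the latter. Without the SKOV-3 miR-135a-3p array its smaller difference was −1.23, beyond 2-fold. The next tested genes on either side, NCBP3 (−0.62 and −0.72) and SPNS3 (−0.39 and −0.59), were within 2-fold of both lines.

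SPRY2, an inhibitor of receptor tyrosine kinase signalling to ERK, read 4.96 and 5.44 in SKOV-3, 9.02 and 8.48 in ES-2, and 9.10 and 8.41 in OVCAR-3. It differed by −3.55 from each line (SE 0.30, adjusted p 0.000887 and 0.000649). SPRY3 read 4.39 and 4.92 against 5.71 to 6.42. SPRY4 read 5.43 and 6.45 against 7.40 to 8.41, and its call was lost without the miR-blank array of ES-2 or of OVCAR-3 (adjusted p 0.0639 and 0.145). In a group of Sprouty and dual-specificity phosphatase genes, put together after the values were seen, 3 of 7 tested were lower than in both lines and 0 higher. Among all tested genes 1.09% were lower, and a group formed after its values were seen is no test. The ERK phosphatase DUSP6 did not share this pattern, at 5.79 and 7.61 in SKOV-3 between ES-2 (9.40 and 8.98) and OVCAR-3 (4.0 and 4.83).

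Lineage factors beyond PAX8 were mixed. Of 12 tested Mullerian and ovarian genes, PAX8 was higher than in both lines and FOXA2 lower, and the medians were 0.71 and −0.20. FOXA2, a forkhead factor of endoderm and uterine glands, read 5.77 and 5.48 in SKOV-3, 7.47 and 7.86 in ES-2, and 8.92 and 8.82 in OVCAR-3. SOX17, a partner of PAX8 in the Mullerian lineage, read 5.35 and 5.52 in SKOV-3 and its differences of 0.48 and 0.47 did not pass the test. LHX1 read 6.10 and 7.87 in SKOV-3, WT1 6.14 and 7.15, and MSLN, the surface protein mesothelin, 5.62 and 7.02. In these 3 genes the miR-135a-3p array was the higher, and their differences (0.87 to 1.61) did not meet the rule against both lines. Without the SKOV-3 miR-blank array each was called higher, with smaller differences of 2.61, 1.28 and 1.53, and LHX1 also without the ES-2 miR-blank array. MEIS1 and LGR4 were lower in SKOV-3 than in OVCAR-3, with differences of −2.11 and −2.62. Of 5 tested mesothelial markers, LRRN4 was higher than in both lines, at 5.69 and 5.36 against 3.80 to 4.24. It was tested only through its SKOV-3 signal. No tested gene of the HOX clusters, 20 in all, was apart from both lines, and 7 were lower than in OVCAR-3. Without the SKOV-3 miR-135a-3p array 3 were called lower than both, HOXB9 (−1.08) and HOXB2 (−1.69) among them, and without the miR-blank array 2 were called higher, HOXC8 (1.18) among them.

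On the list for the ERBB2 region around 17q12, 2 of 13 tested genes were higher than in both lines and 0 lower. The medians were 0.39 and 0.61, and 4.03% of all tested genes were higher. GRB7, IKZF3, NEUROD2 and GSDMB were below the filter, GRB7 at 4.65 and 4.89 in SKOV-3 against 4.28 to 4.53 elsewhere. PGAP3, an enzyme that remodels membrane anchors of proteins, read 8.37 and 7.79 in SKOV-3, 4.72 and 4.80 in ES-2, and 5.50 and 5.10 in OVCAR-3. Its differences were 3.32 and 2.78 (SE 0.21, adjusted p 0.000321 and 0.000438). STARD3, a cholesterol transport protein, read 9.36 and 9.69 against 7.53 to 7.74 (1.90 and 1.88, adjusted p 0.00184 and 0.00149). MIEN1 read 9.34 and 9.21 in SKOV-3 and was higher by 1.58 than ES-2 and by 0.86 than OVCAR-3, the latter under 2-fold. ORMDL3 followed, with 1.16 and 0.72. The signal of TCAP and PNMT, which lie among these genes, and of GSDMA, just beyond ORMDL3, was 4.93 to 5.54 in SKOV-3, and their differences of −0.12 to 0.23 did not pass the test. Farther out, CDK12 (0.26 and 0.23) and MED24 (0.77 and −0.36) were within 2-fold. DNA copy number was not measured in these samples.

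**Figure D5:**
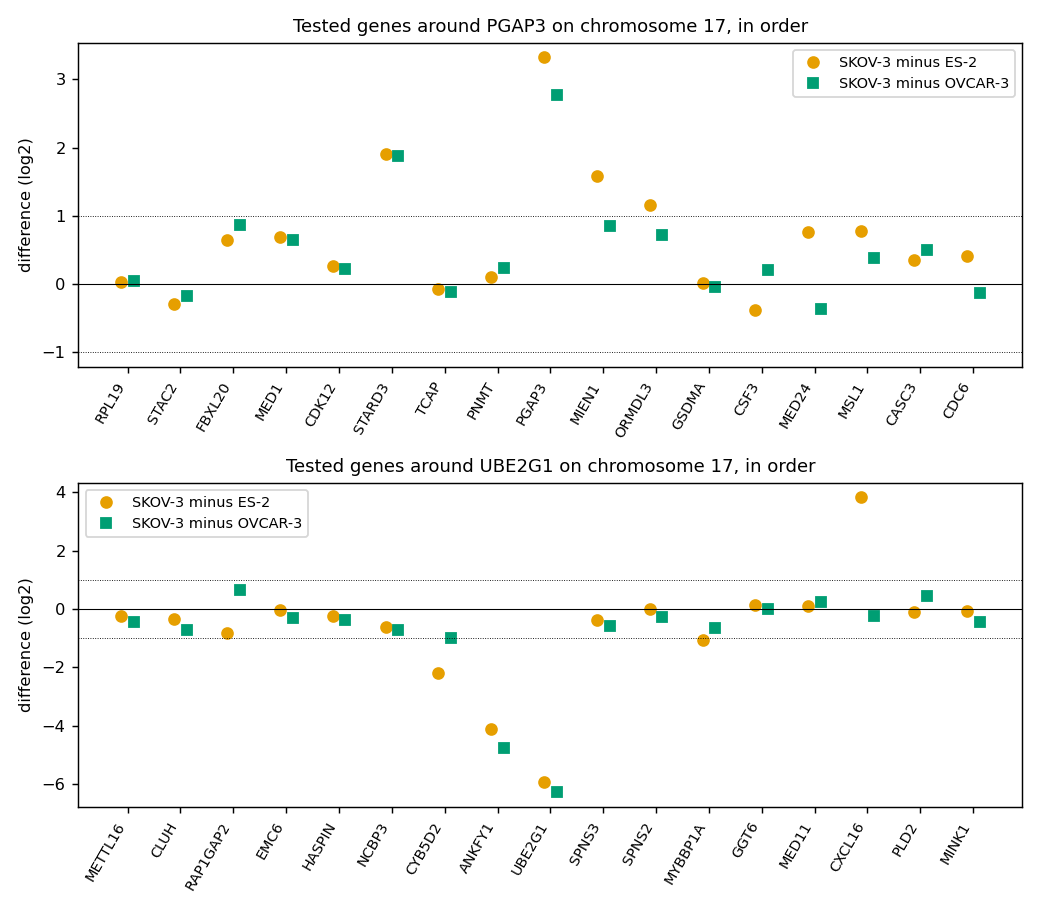
Difference of SKOV-3 from ES-2 (circles) and from OVCAR-3 (squares), log2, for tested genes in chromosome order around PGAP3 (top) and UBE2G1 (bottom), with dotted lines at 2-fold. STARD3 and PGAP3 stand above their neighbours in the upper plot, MIEN1 and ORMDL3 do so only in the difference from ES-2, and CYB5D2, ANKFY1 and UBE2G1 stand below theirs in the lower plot.

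Of 9 tested genes of the ERBB receptors and their ligands, 0 were higher or lower than in both lines. EGFR read 9.29 and 8.71 in SKOV-3, 9.67 and 9.79 in ES-2, and 4.46 and 4.64 in OVCAR-3, so SKOV-3 resembled ES-2 in signal and was 4.45 above OVCAR-3. The ligand gene EREG read 8.05 and 8.34 in SKOV-3 and was 0.98 above ES-2, just under 2-fold, and 4.36 above OVCAR-3. ERRFI1, a feedback inhibitor of EGFR, read 10.43 and 9.81 in SKOV-3, against 11.06 and 11.03 in ES-2 and 11.37 and 11.36 in OVCAR-3. EREG, ERRFI1 and the receptor gene ERBB4 were called apart without the SKOV-3 miR-blank array, at 1.11, −1.23 and 1.08. With equal array medians EREG (1.02) and ERBB4 (1.01, against 0.97 as deposited) were also called higher than both, and ERBB4 also under cyclic loess. Of 25 other receptor tyrosine kinases, RET and ROR1 were higher than in both lines, at 5.45 and 6.04 against 4.33 to 4.65 and at 5.71 and 5.66 against 4.09 to 4.74. Both were tested only through their SKOV-3 signal and so had to read above the mean of the other lines. With the filter on the mean of all 6 arrays the list held 0 of 20. Both were low and lost the call without the SKOV-3 or the ES-2 miR-135a-3p array (smaller differences from 0.85 to 1.15), and RET also did so without that of OVCAR-3. MET, the receptor of hepatocyte growth factor, read 10.03 and 9.52 in SKOV-3, near its level in ES-2 (−0.25), and was 6.11 above OVCAR-3.

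None of 11 tested 9p21 and G1 genes was apart from both lines, and CDK4 and RB1 differed by at most 0.41 from either. CDKN2A, the gene of the inhibitors p16 and p14ARF, was not tested, since it read 3.95 and 4.31 in SKOV-3, 5.53 and 5.45 in ES-2, and 4.46 and 4.85 in OVCAR-3. MTAP, its neighbour on chromosome 9, read 7.47 and 7.94 in SKOV-3, and its differences of −0.57 and 0.35 did not pass the test.

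Cytokine genes gave 3 higher and 0 lower of 15 tested, with medians of 0.45 and 1.89, against 4.03% of all tested genes that were higher. Of the 3, IL18 and IL32 were tested only through their SKOV-3 signal. IL18, an inflammasome-activated cytokine, read 7.85 and 7.40 in SKOV-3, 2.30 and 2.34 in ES-2, and 4.98 and 3.34 in OVCAR-3 (5.31 and 3.46). IL32 read 5.86 and 6.19 against 3.92 to 4.34. The chemokine CCL20 read 9.31 and 6.39 against 3.83 to 4.37. The SKOV-3 arrays of CCL20 were 2.92 apart, and its call was lost without the OVCAR-3 miR-blank array (adjusted p 0.0834). CXCL8, the neutrophil attractant interleukin-8, read 10.39 and 7.66 in SKOV-3, overlapped ES-2 (8.95 and 8.23) and was above OVCAR-3 (3.21 and 3.53). Without the SKOV-3 miR-135a-3p array it was called higher than both (smaller difference 1.70, adjusted p 0.00606). Among 9 tested interferon genes, IFIT3 (5.90 and 5.54 against 2.28 to 3.89) and IRF1 (7.10 and 5.92 against 4.83 to 5.15) were higher than in both. IFIT3 was tested only through its SKOV-3 signal. The call of IRF1 was lost without the miR-blank array of any of the 3 lines (smaller differences of 1.25, 1.10 and 0.80).

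The remaining lists held few genes apart from both lines, against 4.03% higher and 1.09% lower of all tested genes. Among those named next, TSPAN1 was tested only through its SKOV-3 signal. Tetraspanins gave TSPAN1 and TSPAN13 of 8 tested, TSPAN1 at 4.58 and 6.64 against 2.65 to 3.05 and with the call lost without the OVCAR-3 miR-135a-3p array (adjusted p 0.0832). Matrix genes gave NID2, a basement membrane nidogen, at 6.28 and 8.14 against 3.96 to 4.26, and FBLN5, a fibulin of elastic fibres, of 13 tested. FBLN5 was 1.24 and 1.16 higher, and its call was lost without the miR-135a-3p array of any of the 3 lines or the miR-blank array of OVCAR-3 (smaller differences from 0.73 to 1.24). KRT80 was the 1 of 4 tested keratins, at 8.74 and 7.78 against 6.85 and 6.67 in ES-2 and 4.55 and 5.08 in OVCAR-3, and lost the call without either ES-2 array (adjusted p 0.0679 and 0.0614) or the SKOV-3 miR-blank array (0.93, under 2-fold). Of 11 tested genes of the IGF axis, IGFBP6, a binding protein with a preference for IGF2, was higher (1.73 and 3.35) and IGF2BP1 lower. The Wnt receptor FZD8 was lower among 19 tested, at 4.72 and 4.96 against 6.58 to 7.03. GSTM3, a glutathione transferase, was lower among 10 detoxification genes, at 4.64 and 5.07 against 7.04 to 7.31.

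Germ cell genes appeared among the highest. MEIOB, which acts in meiotic recombination, read 8.49 and 7.54 in SKOV-3 and 2.19 to 2.30 elsewhere, a difference of 5.77 and 5.78. Among 6 tested cancer-testis antigens, TEX19 was higher than in both lines, at 6.49 and 7.30 against 4.79 to 5.65. Against single lines, 2 of the 6 were higher than in ES-2, 1 was higher than in OVCAR-3 and 2 were lower than in OVCAR-3. In a group of 23 meiosis genes put together after the values were seen, 8 were tested, and 7 of these were higher than in both lines and 0 lower, against 4.03% of all tested genes that were higher. MEIOB, HORMAD1 and SYCP2 were tested only because SKOV-3 itself reached a mean of 5, so they had to read above the mean of the other lines. TEX19 is also 1 of the 7, so it enters both counts. The meiosis count shows nothing beyond the values of its members. SYCP2, of the synaptonemal complex that pairs chromosomes, read 7.51 and 6.77 against 2.77 to 3.34. HORMAD1, a meiotic chromosome axis protein, read 6.04 and 6.01 against 1.95 to 2.47. STAG3 and SMC1B, the meiotic cohesins, read 7.05 and 7.10 and 6.78 and 7.40, with smaller differences of 1.89 and 1.88. The call of SMC1B was lost without the OVCAR-3 miR-blank array (adjusted p 0.0564). SYCE2 read 6.52 and 7.67 against 4.35 to 5.16. MSH5 was the exception, at 7.47 and 6.95 in SKOV-3 and 7.21 to 7.51 elsewhere.

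Some genes apart from both lines were neighbours. Among the tested genes in chromosome order, 34 runs of 2 or more neighbours held 90 of the 361 higher genes, and 3 runs held 6 of the 98 lower genes. No expectation for such runs was computed. After the PCDHB run, the longest was on chromosome 12 and held DENND5B, AMN1, RESF1, BICD1, DNM1L and PKP2. RESF1 read 9.42 and 8.98 in SKOV-3 against 6.64 to 6.80, and DNM1L, which divides mitochondria, read 9.77 and 9.70 against 7.33 to 8.29. In this run DENND5B, AMN1 and BICD1 lost the call without 1 or more arrays, BICD1 also when probe sets were averaged. On chromosome 9, HRCT1, RECK, GNE and MELK formed a run of 4 and DCAF12, UBAP1 and KIF24 a run of 3. Outside HRCT1 (2.25 and 2.62), the smaller differences of these genes were 1.03 to 1.25 and each lost its call without at least 1 OVCAR-3 array. S100A4 was followed by S100A3 (3.0 and 3.41) and S100A2 (1.36 and 1.65) on chromosome 1, the latter losing its call without the ES-2 miR-blank or the OVCAR-3 miR-135a-3p array. Higher genes made up 8.59% of the tested genes of chromosome 18 (11 of 128), 6.79% of chromosome 9 and 6.02% of chromosome 5, against 4.03% overall. The 24 higher genes of chromosome 5 include the 12 PCDHB genes and their 2 pseudogenes. A group of 163 tested genes on chromosome 19 with ZNF symbols was formed after the values were seen. Of these, 20 were higher than in both lines and 0 lower, against 4.03% of all tested genes that were higher. ZNF257, the highest of them, read 6.75 and 6.54 against 2.05 to 2.82, and was tested only through its SKOV-3 signal. How many other members were tested only in this way was not counted. A group formed after its values were seen is no test.

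The transfections bear on how steady these differences are. The SKOV-3 arrays were at least 2-fold from each other in 58 of the 361 higher genes (16.1%) and 5 of the 98 lower genes (5.1%), against 4.48% of all tested genes. Of the 58, 30 were higher and 28 lower after miR-135a-3p. With any 1 array left out, 183 of the 361 higher genes and 53 of the 98 lower genes were called every time. Of the 93 called genes examined by name, 70 were called without each array in turn, among them PAX8, MARVELD2, PCDHB5, ANXA3, DSP, DSG2, CLDN1, UBE2G1 and SPRY2.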

How the data were processed

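Per the labels, total RNA was amplified and labelled with a whole-transcript kit. The authors deposited 1 log2 signal per array for each of 53617 probe sets. Transcriptome Analysis Console 3.0, Affymetrix Expression Console 1.4 and RMA are listed in the submitters' processing notes, with no role. RMA equalises array distributions, so a shift of most genes would be removed. Of the probe sets, 16098 had 1 gene symbol, 0 several and 37519 none here. All named ones matched RefSeq (GRCh38.p14) by Entrez identifier. The highest-mean probe set stood for each of 14884 symbols. Genes with a mean of at least 5 over the arrays or in SKOV-3 were tested (8951, 331 of them through SKOV-3 alone). limma 3.58.1 in R 4.3.3 (lmFit, eBayes, two-sided, Benjamini-Hochberg over all tested genes) fitted line with transfection as a block, and was checked on simulated data. Named genes were the markers, the 15 highest and 15 lowest protein-coding genes by the smaller difference, up to 4 apart genes a list (up to 3 of the highest signal where none was), and 4 lists in full. Others were named after their values were seen. Members and lists were chosen with earlier results of these data known. Alternatives changed the filter, normalization, variance model, probe set rule, block and arrays.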

Additional observations from a re-analysis of the deposited data

Results flagged for a closer look

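Probe sets with no gene name here were outside the comparisons above. In a fit over all 20265 probe sets that passed the filter, 10745 were unnamed, and of these 273 were higher and 202 lower in SKOV-3 than in both other lines. SPRY4 moved in opposite directions between lines: after miR-135a-3p it was higher by 1.02 in SKOV-3 and lower in OVCAR-3, where it fell from 8.41 on the miR-blank array to 7.40. That difference rests on 1 array per line and transfection and was not tested.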

How the results depend on the processing

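Without variance moderation limma called 0 higher genes, 0 lower genes and 0 genes against the mean of the other lines, at 267 and 72 genes with an unadjusted p under 0.05 and 2-fold in both comparisons (389 and 99 with moderation). Treating the other 4 arrays as 1 group called 187 genes, against 1002 for SKOV-3 against the mean of the lines; 148 were higher and 39 lower, and 1516 had an unadjusted p under 0.05. The miR-blank arrays alone gave 172 lower genes at 2-fold, with no test. With 1 array left out, its line keeps 1 array, assumed to vary like the others, and the counts ran from 254 to 448 higher, 70 to 173 lower (173 without the SKOV-3 miR-135a-3p array) and 957 to 1195 against the mean. The cause of these changes was not tested. HOXB2 reversed to 0.48 without the SKOV-3 miR-blank array and read −1.69 without the SKOV-3 miR-135a-3p array, where it was called lower. TCAP reversed to 0.062 without the latter and read −0.25 without the former, and was called in neither. Without the transfection block limma called 366 higher, 97 lower and 1000 genes against the mean. The other filters, normalizations, variance trend and probe set rule gave 256 to 378 higher and 85 to 105 lower genes, and equal array medians gave 378 and 87. Signals near the array median, without detection calls, limit how far low levels can be ordered.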
